A study of Mus musculus with 19 samples.

Results

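Cdkn1a encodes p21, an inhibitor of cyclin-dependent kinases, and it was followed here through 19 reperfused mouse hearts with its Cip/Kip relatives Cdkn1b and Cdkn1c and with the p53 targets Mdm2, Ccng1, Bax, Sesn1 and Trp53inp1. These 8 genes were chosen by name, and a gene counted as measured when the platform annotation gave it a probe set of its own. That held for 7 of the 8, out of 22180 genes measured in all. Bax had no probe set named for it alone and is not analysed here. Each of the 7 had a single probe set, and all 7 had a mean above the median of all probe sets (3.25 on the log2 scale). Cdkn1a was chosen for how its level differs between the groups, so its group values are given as a description, with no p-value.

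Each heart was removed and kept beating on a Langendorff apparatus, with buffer entering the coronary arteries by way of the aorta. Every heart, in all groups, had 20 min of steady perfusion, 20 min with the flow stopped and 20 min of reperfusion before it was frozen. There were 7 hearts of wild-type C57Bl6J mice at ZT0 (lights on), 7 of the same genotype and strain at ZT12 (lights off) and 5 of Reverb alpha KO mice at ZT12. The labels give no strain for the knockout mice and no age, sex or batch, and they list no knockout at ZT0 and no heart without ischemia. Reverb alpha, the product of Nr1d1, is a nuclear receptor that represses transcription in the circadian clock. The labels call the replicates biological, and each array was taken as 1 heart.

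The Cip/Kip proteins p21, p27 and p57 bind cyclins together with their kinases and hold cells out of the division cycle. Transcription of Cdkn1a is best known as the readout of p53, the factor that also drives Mdm2, Ccng1, Bax, Sesn1 and Trp53inp1 after stress or DNA damage. Other inputs reach the gene too: in mouse liver REV-ERB alpha is known to repress it and ROR factors to activate it, so that p21 follows the clock there. In adult heart muscle, where most cells no longer divide, p21 and p27 are among the inhibitors that are kept expressed.

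RefSeq gives Cdkn1a more than 1 transcription start, and the bases before both are shown because they differ in matches to the p53 consensus. Each line holds the 250 bases before a start on the plus strand of GRCm38.p6. In the first, at chr17:29090729-29090978, capitals mark exact matches to the p53 half-site consensus and a pair of adjoining half-sites with at most 1 mismatch. In the second, at chr17:29093519-29093768, capitals mark GC boxes (GGGCGG). The starts lie 2790 bases apart, and the array has 1 probe set for the gene, so transcripts from them were not told apart.

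Cdkn1a, upstream start: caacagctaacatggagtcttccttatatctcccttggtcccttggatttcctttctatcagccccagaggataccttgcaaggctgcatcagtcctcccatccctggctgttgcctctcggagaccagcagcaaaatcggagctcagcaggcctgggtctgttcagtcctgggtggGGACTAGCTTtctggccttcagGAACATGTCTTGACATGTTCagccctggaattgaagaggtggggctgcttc

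Cdkn1a, downstream start: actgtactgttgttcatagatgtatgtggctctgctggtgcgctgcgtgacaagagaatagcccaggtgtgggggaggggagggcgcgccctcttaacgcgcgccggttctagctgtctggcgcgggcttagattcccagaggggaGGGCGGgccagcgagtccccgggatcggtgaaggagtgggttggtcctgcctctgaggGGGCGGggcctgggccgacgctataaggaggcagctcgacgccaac

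The upstream window holds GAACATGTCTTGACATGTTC, from 51 to 32 bases before the start. It is a pair of adjoining p53 half-sites with at most 1 mismatch to the consensus. A search for such pairs, set up after the sequence was seen, matched 15 of 32851 RefSeq windows of this length (0.0457%), counting both strands. It required the central bases of each half-site (C, 2 bases of A or T, and G) to be exact. Pairs with the mismatch in those central bases were not counted. Single exact half-sites were commoner, in 7.13% of windows. Among the other members they occurred in the windows of Mdm2 (GAACTTGCCT), Ccng1 (GGGCAAGCCT), Bax (AGGCAAGCTT) and the downstream start of Sesn1 (AAGCTTGTTT), while the windows of Cdkn1b and the upstream start of Sesn1 had no match. The downstream window of Cdkn1a held 2 GC boxes and no match to the p53 half-site. Motifs of clock factors were searched on both strands in the same windows: the E-box CACGTG (6.02% of all windows), the nuclear receptor half-site AGGTCA (14%) and the D-box TTATGNAA (3.07%). Neither Cdkn1a window held any of these, and among the 8 windows found for 6 of the members the E-box of Bax was the only such match. Cdkn1c and Trp53inp1 had no window in the table. These are matches of letters within short windows, not measured binding.

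Cdkn1a was lowest in wild-type hearts at ZT12, intermediate at ZT0 and highest in the knockout. At ZT0 its log2 value ran from 6.72 to 7.40 with a median of 7.12. In wild-type hearts at ZT12 it ran from 5.85 to 6.70 with a median of 6.29. The 5 knockout hearts had 7.70, 6.98, 7.45, 7.54 and 7.46. All 7 wild-type hearts at ZT12 lay below every ZT0 heart (0.374% of all genes were lower without overlap, 0.528% higher). They also lay below every knockout heart (0.969% of all genes were higher in the knockout without overlap, 0.428% lower), whereas the knockout and ZT0 ranges overlapped (1.19% of all genes were higher without overlap, 0.532% lower), through the knockout heart at 6.98.

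As group means, Cdkn1a was at 7.09 ± 0.22 at ZT0 (SD, n = 7), 6.31 ± 0.31 at ZT12 (SD, n = 7) and 7.43 ± 0.27 in the knockout (SD, n = 5). The level at ZT12 was 1.72-fold below that at ZT0 (log2 difference -0.78, SE 0.13). In the knockout it was 2.17-fold above wild type at the same time (1.12, SE 0.15) and 1.26-fold above wild type at ZT0 (0.33, SE 0.15). Among 22180 genes, 13 had a lower difference between the wild-type groups and 4 a higher one between knockout and wild type at ZT12. These ranks describe the choice of the gene and support nothing. The 3 comparisons share hearts, so their differences are not independent.

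**Figure D1:**
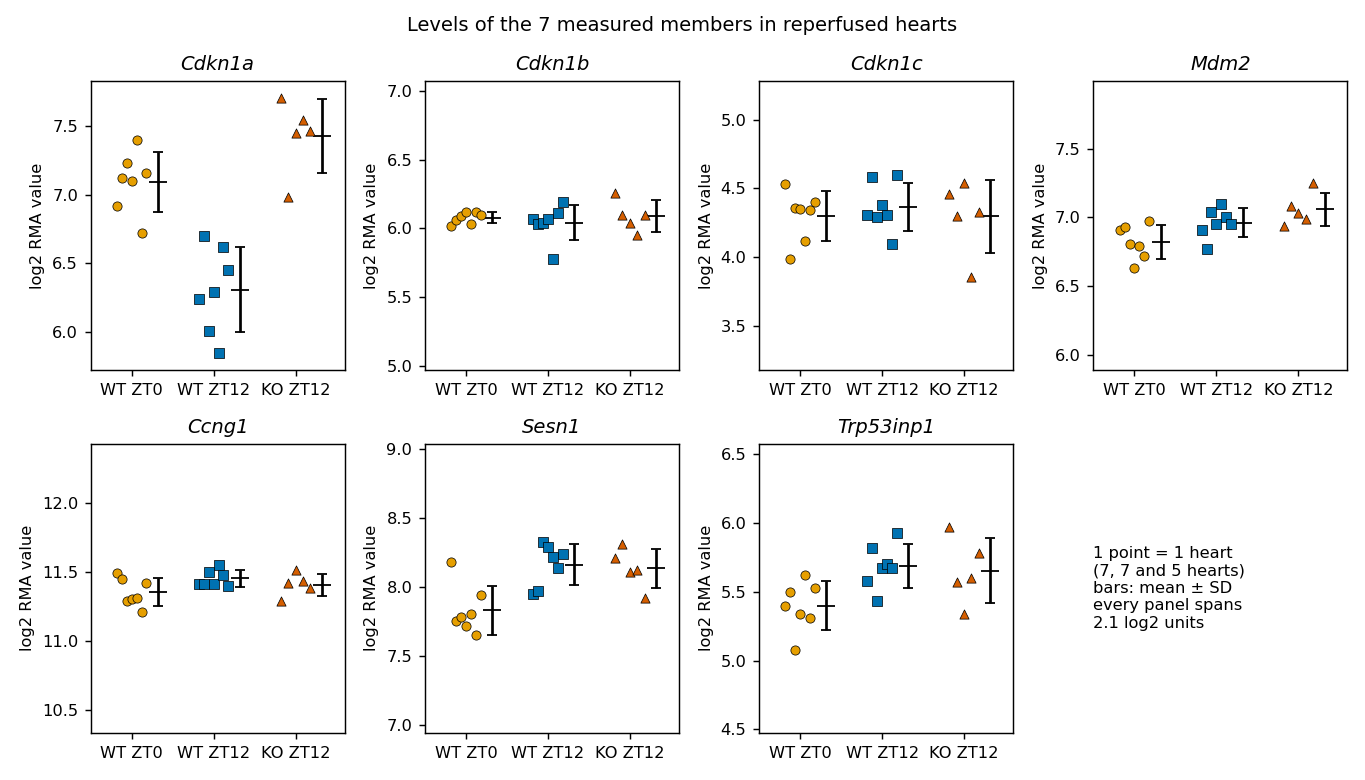
Log2 RMA value (vertical axis, the same span in every panel) of each measured member by group; a point is 1 heart and the bars are mean ± SD. Cdkn1a spans 5.85 to 7.70 with the wild-type ZT12 hearts lowest, while the groups of each other member overlap.

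Neither of the other Cip/Kip genes passed in any comparison, and the groups of both overlapped. Cdkn1b, the gene of p27, had a median of 6.09 at ZT0 (range 6.02 to 6.12), 6.07 at ZT12 (5.78 to 6.19) and 6.10 in the knockout (5.95 to 6.26). The 95% interval of its log2 difference was -0.17 to 0.10 between the times of day and -0.10 to 0.19 between the genotypes (adjusted p = 0.885 and 0.866, limma). Cdkn1c, the imprinted gene of p57, had medians of 4.35 at ZT0 (3.99 to 4.53), 4.31 at ZT12 (4.10 to 4.60) and 4.33 in the knockout (3.86 to 4.54). Its intervals were wider, -0.15 to 0.29 and -0.31 to 0.17 (limma adjusted p = 0.860 and 0.891). For both genes these intervals leave out changes of the size described for Cdkn1a, and smaller changes beyond the limits given. Changes within those limits are not left out.

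Mdm2, which encodes the ubiquitin ligase that marks p53 for degradation and is itself driven by p53, had a median of 6.81 at ZT0 (6.63 to 6.97). At ZT12 the median was 6.95 (6.77 to 7.10), and the knockout hearts had 6.94, 7.08, 7.03, 6.99 and 7.25. The groups overlapped. The differences were 0.14 between the times (SE 0.07, limma adjusted p = 0.461), 0.09 between the genotypes (SE 0.08, adjusted p = 0.718) and 0.23 for knockout against wild type at ZT0 (SE 0.08, adjusted p = 0.161). None passed. Ccng1, the gene of cyclin G1, which guides a phosphatase to MDM2, was at 11.21 to 11.49 at ZT0 (median 11.31), 11.40 to 11.55 at ZT12 (median 11.41) and 11.29 to 11.51 in the knockout (median 11.42). Its differences of 0.10, -0.05 and 0.05 in the same 3 comparisons did not pass (limma adjusted p 0.552 to 0.863).

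Sesn1 encodes sestrin 1, which restrains growth signalling through mTORC1. It had a median of 7.78 at ZT0 (7.65 to 8.18) and 8.22 at ZT12 (7.95 to 8.33), and the knockout hearts had 8.21, 8.31, 8.11, 8.12 and 7.92. At ZT0 the single heart at 8.18 lay within the ZT12 range and the other hearts lay below it. The difference between the times was 0.33 (SE 0.09), higher at ZT12, with 7 of 7 hearts above the ZT0 mean, but it did not pass (limma adjusted p = 0.0690). It passed with dim probe sets left out (limma adjusted p = 0.0341), with a variance trend and robust fit (0.0191) and with the arrays centred (0.0484). It also passed without WT ZT0 replicate 1 (0.0168) and without WT ZT12 replicate 1 (0.0471). In every other setting it did not pass, with limma adjusted p = 0.159 with the atrial covariate and 0.154 with the replicate block. Against wild type at ZT12 the knockout differed by -0.03 (95% interval -0.22 to 0.17).

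Trp53inp1, whose product aids p53 phosphorylation and autophagy under stress, had a median of 5.40 at ZT0 (5.08 to 5.62) and 5.67 at ZT12 (5.43 to 5.93). The knockout hearts had 5.97, 5.57, 5.34, 5.60 and 5.78. The groups overlapped. Its difference was 0.29 between the times (SE 0.10, limma adjusted p = 0.216) and -0.03 between the genotypes (95% interval -0.26 to 0.19).

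Set side by side, the comparison of times gave -0.78 for Cdkn1a and 0.14, 0.10, 0.33 and 0.29 for Mdm2, Ccng1, Sesn1 and Trp53inp1, so the measured p53 targets lay on the other side of 0. The comparison of genotypes at ZT12 gave 1.12 for Cdkn1a and 0.09, -0.05, -0.03 and -0.03 for the same 4 genes. Knockout against wild type at ZT0 gave 0.33 for Cdkn1a and 0.23, 0.05, 0.31 and 0.26 for these 4 genes. In that comparison all of them lay on the same side of 0 as Cdkn1a. No p-value is given for the contrast between Cdkn1a and these genes, because it rests on the values for which Cdkn1a was chosen. Of the 6 measured members other than Cdkn1a, limma called 0 in each comparison at an adjusted p under 0.05. Over all genes 1.13% were called between the times, 0.73% between the genotypes and 1.34% for knockout against wild type at ZT0, so 0 of 6 is near the background. At an unadjusted p under 0.05, 2 of 6 were higher at ZT12 than at ZT0 (Sesn1 and Trp53inp1; 5.76% of all genes) and 0 of 6 lower (5.73%). Between the genotypes 0 of 6 were higher (5.35%) and 0 of 6 lower (5.21%). Against wild type at ZT0 3 of 6 were higher in the knockout (Mdm2, Sesn1 and Trp53inp1; 6.44%) and 0 of 6 lower (6.15%). In either direction the shares of all genes were 11.5%, 10.6% and 12.6%. Groups that do not overlap were found for 0 of these 6 members in any comparison, against 0.902%, 1.4% and 1.72% of all genes.

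**Figure D2:**
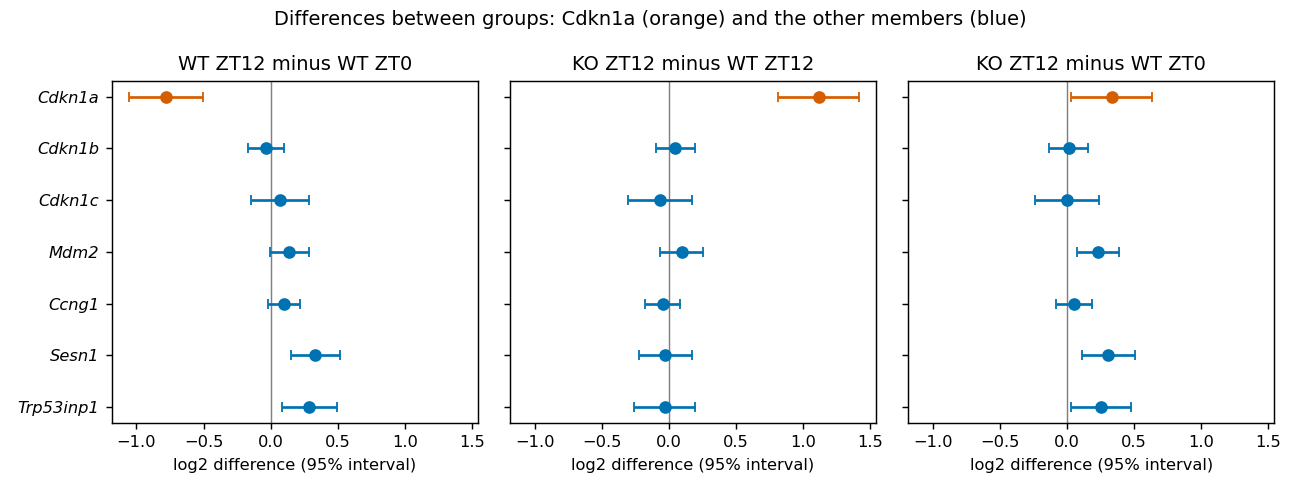
Log2 difference of group means (horizontal axis) with its 95% interval from limma, for each measured member in the 3 comparisons. Cdkn1a (orange, a description) lies at -0.78, 1.12 and 0.33, and the other members (blue) lie between -0.07 and 0.33.

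The p53 pathway beyond the members was read from a list of 31 genes, of which 28 were measured; p53 itself (Trp53), Gadd45a and Ddb2 had no probe set of their own. Between the times of day 1 rose (0.645% of all genes did), 0 fell (0.482%) and 27 did not pass. At an unadjusted p under 0.05, 6 were higher (5.76% of all genes) and 0 lower (5.73%). The median log2 difference of the list was 0.09, against -0.0035 for all genes. The gene that rose was Ephx1, which encodes microsomal epoxide hydrolase and is also controlled by xenobiotic receptors. Its values ran from 6.10 to 6.71 at ZT0 and from 6.94 to 7.14 at ZT12, with no overlap (log2 difference 0.56, SE 0.08; limma adjusted p = 0.000326).

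Between knockout and wild type at ZT12, 0 of the 28 rose (0.442% of all genes did) and 0 fell (0.289%) by limma, and at an unadjusted p under 0.05 2 were higher (5.35% of all genes) and 5 lower (5.21%). The list's median was -0.10, against -0.0030 for all genes. Ephx1 was at 7.17, 6.91, 7.13, 6.90 and 7.08 in the knockout, a difference of 0.01 (95% interval -0.17 to 0.19; limma adjusted p = 0.990). Against wild type at ZT0 the knockout had 2 genes higher (0.965% of all genes), 0 lower (0.379%) and 26 that did not pass, with a median of -0.02 against -0.0076. At an unadjusted p under 0.05, 4 were higher (6.44% of all genes) and 1 lower (6.15%). The called genes were Ephx1 (0.56, limma adjusted p = 0.000963) and Fas, the gene of a death receptor. Fas ran from 6.65 to 7.01 at ZT0 and had 7.40, 7.03, 7.26, 7.62 and 7.27 in the knockout. These did not overlap (0.51, SE 0.10, limma adjusted p = 0.0131). Between the genotypes at ZT12 Fas was among the 2 genes higher at an unadjusted p under 0.05. Its difference there was 0.37 (SE 0.10) with 5 of 5 knockout hearts above the wild-type mean, but it did not pass (limma adjusted p = 0.120). The call for Fas was lost without KO ZT12 replicate 4 (adjusted p = 0.0556), with the replicate block (0.0543) and without 4 hearts low in atrial transcripts that are described below (0.102). Without those 4 hearts its log2 difference was 0.52, with only KO ZT12 replicates 1 and 3 left in the knockout.

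**Figure D3:**
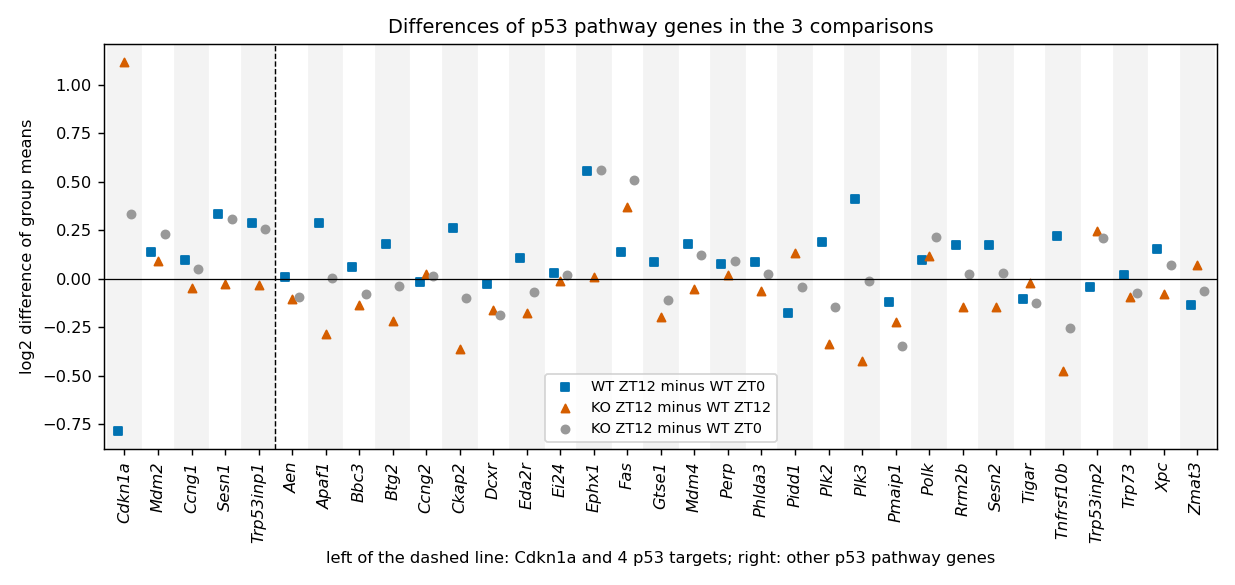
Log2 difference of group means (vertical axis) of Cdkn1a, 4 p53 targets and the 28 other measured genes of the p53 list, each with 3 points, 1 per comparison. Cdkn1a is at -0.78 and 1.12 in the comparisons of times and of genotypes, Ephx1 at 0.56 and 0.01, and Fas at 0.14 and 0.37.

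The machinery on which p21 acts was measured as 17 of 19 listed cyclins, cyclin-dependent kinases, INK4 inhibitors and retinoblastoma partners. By limma 0 rose and 0 fell in each of the 3 comparisons, where 1.13%, 0.73% and 1.34% of all genes were called. At an unadjusted p under 0.05 there were 2 higher and 0 lower between the times (5.76% and 5.73% of all genes). There were 0 higher and 2 lower between the genotypes (5.35% and 5.21%), and 0 higher and 3 lower for knockout against wild type at ZT0 (6.44% and 6.15%). Ccnd1, the gene of cyclin D1, gave the smallest p of the list in the knockout, at a log2 difference of -0.37 from wild type at ZT12 (SE 0.09, adjusted p = 0.0767). Cdk2, whose kinase is a main target of p21, was at 0.31 between the times (SE 0.09, adjusted p = 0.116).

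A further list held transcription factors known to act on Cdkn1a and clock genes. Of 25 measured (26 listed), 4 rose and 3 fell between the times (0.645% and 0.482% of all genes). Between the genotypes 3 rose and 0 fell (0.442% and 0.289%), and for knockout against wild type at ZT0 6 rose and 2 fell (0.965% and 0.379%). The list was written with the clock genes' behaviour in these hearts known, so its counts are not independent evidence. The clock activator genes Arntl, Clock and Npas2 fell at ZT12 (log2 differences -3.18, -0.73 and -1.45) and rose in the knockout against wild type at ZT12 (2.45, 0.64 and 0.96; limma adjusted p 1.24e-12 to 0.00170). Clock ran from 8.45 to 8.67 at ZT0, from 7.78 to 7.99 at ZT12 and from 8.42 to 8.64 in the knockout. The knockout's Arntl values, 6.28 to 6.77, lay between the ZT12 range of 3.72 to 4.31 and the ZT0 range of 7.18 to 7.36, while those of Cdkn1a reached above ZT0. The call for Npas2 between the genotypes was lost without the 4 hearts low in atrial transcripts (adjusted p = 0.105). Its log2 difference was then 0.94, with only KO ZT12 replicates 1 and 3 left in the knockout.

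Nr1d2, Bhlhe41, Klf9 and Klf15 rose at ZT12 (1.32, 0.56, 0.46 and 0.46; limma adjusted p 3.74e-09 to 0.0185) and did not pass between the genotypes, where they lay at 0.11, 0.23, 0.15 and 0.17. Klf15, a glucocorticoid-responsive factor of heart metabolism, lost its call between the times with the replicate block (adjusted p = 0.0880). Foxo3 (0.53) and Cebpb (0.69), whose products can activate the Cdkn1a promoter, were higher in the knockout than in wild type at ZT0 (limma adjusted p = 0.00162 and 0.00364). Atf4 was lower there (-0.45, adjusted p = 0.0323), a call that 11 of 22 alternatives kept. Without the 4 hearts low in atrial transcripts the calls for Klf15 and Foxo3 in that comparison were lost (adjusted p = 0.151 for both). Their log2 differences were then 0.54 and 0.45, against 0.63 and 0.53 with all hearts. Only KO ZT12 replicates 1 and 3 were left in the knockout.

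Over all 19 hearts, the genes most like Cdkn1a were ranked by Pearson's r among 10417 named genes of at least median level. These r describe the ranking and carry no p, since the group differences of Cdkn1a enter them. The 5 highest were Slc41a3 (a magnesium transporter gene, r = 0.86), Pde3a (a phosphodiesterase of cyclic AMP, 0.84), Ddit4 (an inhibitor of mTORC1, 0.83), Rcan1 (a calcineurin regulator, 0.82) and Tgfb3 (a growth factor, 0.81). Slc41a3 had group means of 7.18, 5.83 and 7.59 at ZT0, ZT12 and in the knockout, and Ddit4 had 5.56, 4.88 and 6.26, the order of Cdkn1a. The 3 lowest were Mylk4 (-0.87), Lmod3 (-0.86) and Abcc1 (-0.83), a myosin light chain kinase, an actin nucleator and a drug exporter. Clock ranked 16 (r = 0.77), Arntl 27 (r = 0.74) and Npas2 40 (r = 0.71). Over values centred on their group means, however, r was -0.32 for Clock, -0.68 for Arntl and 0.19 for Npas2. Among the members, Cdkn1b ranked 1201 (r = 0.37), and Mdm2 (-0.08), Trp53inp1 (-0.07), Cdkn1c (-0.15), Sesn1 (-0.35) and Ccng1 (-0.41) ranked from 6318 to 9666. Of the called genes of the p53 list, Fas ranked 1091 (r = 0.39) and Ephx1 8139 (r = -0.22).

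**Figure D4:**
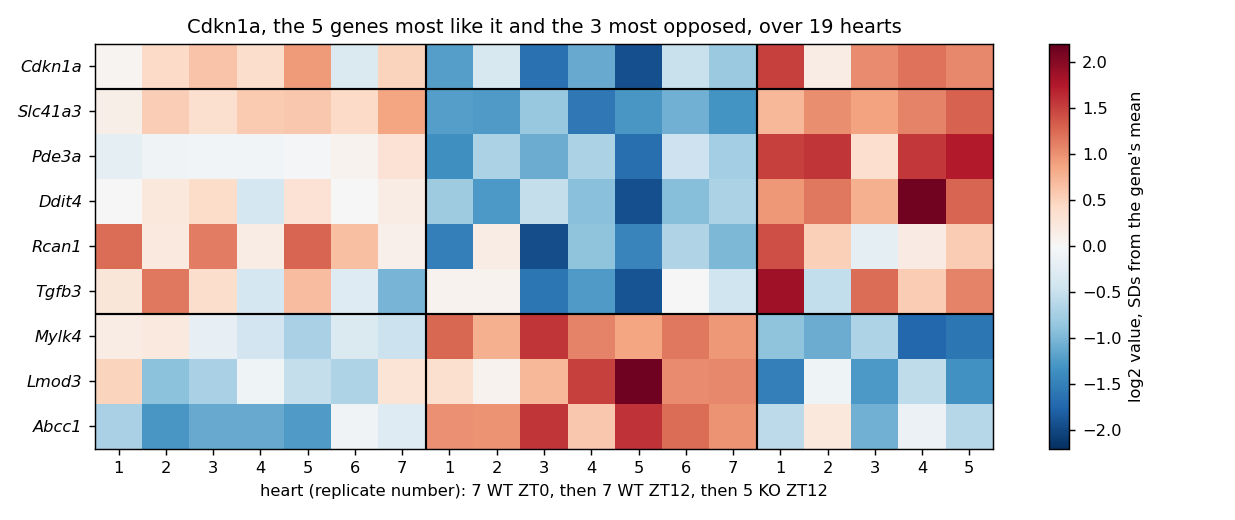
Log2 values as SDs from each gene's mean (colour), with 19 hearts in columns by group and genes in rows: Cdkn1a, the 5 genes with the highest r to it and the 3 with the lowest. Cdkn1a and the first 5 genes are mostly blue in the 7 wild-type ZT12 hearts, and the last 3 are red there.

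A measure that the choice of Cdkn1a did not use is how hearts of 1 group deviate together from their group mean. Over these group-centred values (n = 19), Cdkn1a had r = 0.42 with Trp53inp1 (rho = 0.45) and r = 0.39 with Cdkn1b (rho = 0.22). It had r = -0.34 with Mdm2 (rho = -0.27), -0.30 with Sesn1 (rho = -0.26), -0.26 with Ccng1 (rho = -0.27) and -0.01 with Cdkn1c (rho = 0.12). None passed in a two-sided permutation test within groups, adjusted over 14 relations. For the r values unadjusted p was 0.0884 to 0.973 and adjusted p 0.309 to 0.973, and for the rho values 0.0648 to 0.642 and 0.227 to 0.727. So neither a shared nor an opposed variation of Cdkn1a with these genes was detectable from 19 hearts. Leaving out the 2 hearts farthest from the median of Cdkn1a (WT ZT12 replicate 5 and KO ZT12 replicate 2), r was 0.50 for Trp53inp1, 0.13 for Cdkn1b, -0.23 for Mdm2, -0.16 for Sesn1 and -0.12 for Ccng1. With 1 heart left out in turn, r ran from 0.10 to 0.48 for Cdkn1b, from -0.48 to -0.19 for Mdm2, from -0.47 to -0.19 for Sesn1, from -0.53 to -0.13 for Ccng1 and from 0.34 to 0.55 for Trp53inp1. The value for Cdkn1b rests on WT ZT12 replicate 5, without which r was 0.10. For Ccng1 r was -0.53 without WT ZT0 replicate 6, -0.13 without WT ZT12 replicate 5 and -0.17 without KO ZT12 replicate 1. For Sesn1 it was -0.47 without WT ZT0 replicate 6, -0.20 without WT ZT12 replicate 2 and -0.19 without KO ZT12 replicate 2. For Mdm2 it was -0.19 without WT ZT12 replicate 2 and -0.22 without WT ZT12 replicate 5. Within the ZT12 wild-type hearts alone (n = 7) r with Mdm2 was -0.75 (exact permutation p = 0.0486, adjusted p = 0.227), and within those at ZT0 it was 0.15 (exact p = 0.753).

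**Figure D5:**
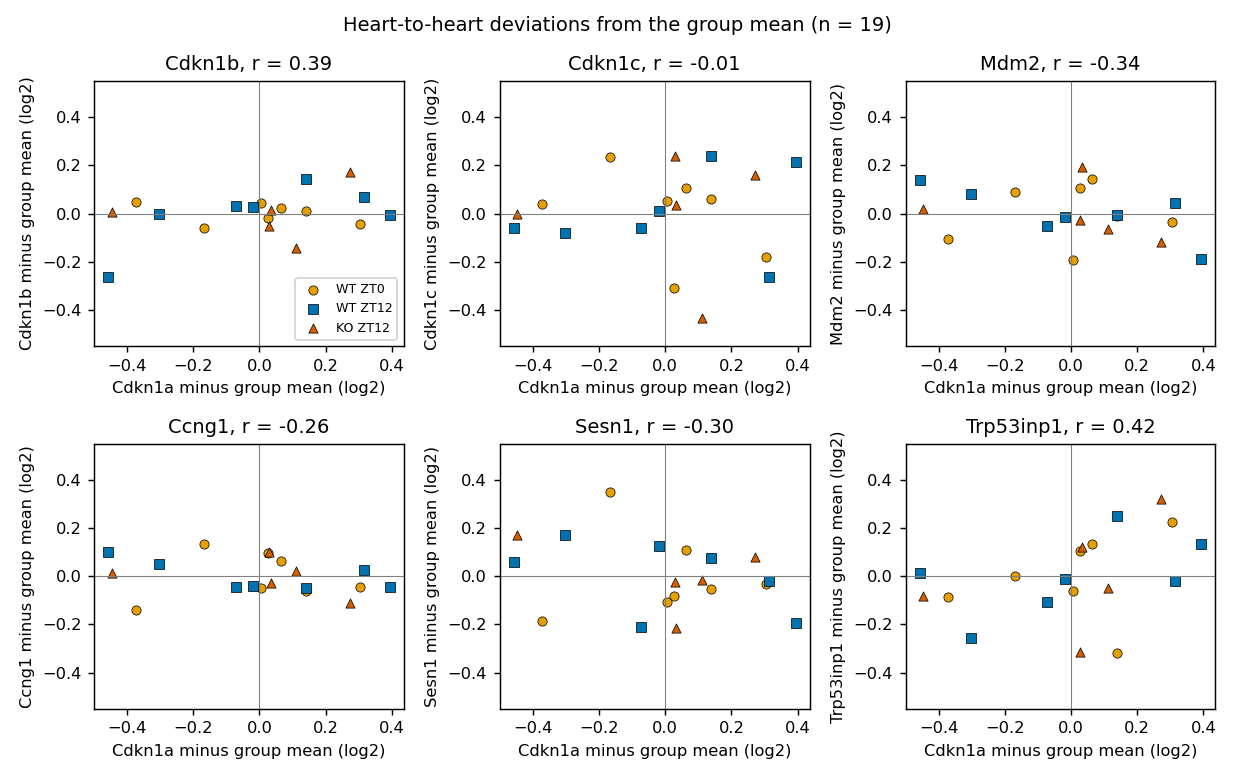
Deviation of each heart from its group mean for Cdkn1a (horizontal axis, log2) and for each other member (vertical axis, log2), 1 point per heart with colour and shape for the group. The clouds have r between -0.34 and 0.42.

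The other cells and conditions that a heart sample can carry were read from marker lists. Markers of cardiomyocytes, which define the labelled tissue, had a list mean of 11.29 to 11.40 over all hearts. For atrial muscle, with 10 of 10 markers measured, the list mean ran from 7.62 to 8.81 at ZT0, from 6.06 to 8.66 at ZT12 and from 5.93 to 8.62 in the knockout. The medians of the atrial markers' log2 differences were -0.59, -0.50 and -1.02 in the 3 comparisons. None of the 10 was called lower in any comparison, where 0.482%, 0.289% and 0.379% of all genes were. For knockout against wild type at ZT0, 7 of 10 were lower at an unadjusted p under 0.05 (6.15% of all genes). There 1 marker, Gpr22, was higher and called (0.45, limma adjusted p = 0.0460), as were 0.965% of all genes. Bmp10, a hormone gene of the atria, was at 3.86 in 1 heart at ZT0, at 3.42 to 3.70 in 4 hearts at ZT12 and at 2.66 to 4.15 in 4 knockout hearts, and at 9.01 or above in the other hearts. Those with an atrial list mean at or under 6.24 were WT ZT12 replicate 5 and KO ZT12 replicates 2, 4 and 5. Over group-centred values the atrial list had r = 0.64 with Cdkn1a (permutation p = 0.00501, adjusted p = 0.0701) and rho = 0.60 (permutation p = 0.0112, adjusted p = 0.0781). The r was 0.42 without the 2 hearts farthest from the median of Cdkn1a. Between the wild-type groups the atrial mean and Cdkn1a were both lower at ZT12 than at ZT0 (atrial mean 7.71 against 8.41). The knockout had the lowest atrial mean (6.97) and the highest Cdkn1a. Without the 4 hearts only replicates 1 and 3 of the knockout remained. The log2 differences of Cdkn1a were then -0.71, 1.19 and 0.48 in the 3 comparisons. With the atrial mean as a covariate the differences of Cdkn1a were -0.65, 1.26 and 0.61, against -0.78, 1.12 and 0.33 without it. In whole-heart RNA, fewer cells of a type and less RNA per cell cannot be told apart.

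Immediate early genes, which perfusion and handling induce, had list means of 7.40 to 7.91 at ZT0, 7.11 to 8.19 at ZT12 and 7.06 to 7.91 in the knockout. Of 19 measured, limma called Ier3 higher between the times (0.51, adjusted p = 0.0224), where 0.645% of all genes were called higher. Nr4a3 was called lower between the genotypes (-0.87, adjusted p = 0.0442), where 0.289% of all genes were. The list mean had a group-centred r of 0.47 with Cdkn1a (permutation p = 0.0728, adjusted p = 0.309). By rank it had rho = 0.48 (permutation p = 0.0492, adjusted p = 0.227). The r was 0.33 without the 2 hearts farthest from the median of Cdkn1a (permutation p = 0.148). Within the ZT12 wild-type hearts r was 0.90 (exact permutation p = 0.00198, adjusted p = 0.0278), and within those at ZT0 -0.17 (exact p = 0.729). The adjustment at ZT12 ran over the 14 relations within that group alone, not over the other sets of hearts tested. WT ZT12 replicate 5 was lowest in Cdkn1a and in the atrial list of that group. Smooth muscle markers had r = 0.47 (permutation p = 0.0461, adjusted p = 0.309) and rho = 0.63 (permutation p = 0.00451, adjusted p = 0.0631). The other 5 lists had r between -0.22 and 0.40. In those 5, limma called 1 gene, Kdr of the endothelial list, lower between the times (-0.52, adjusted p = 0.00160). The part of tissue makeup and early response in the level of Cdkn1a was not tested beyond these values.

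The gene deleted in the knockout was read in every sample. Nr1d1 ran from 5.76 to 6.67 at ZT0 and from 6.46 to 7.28 at ZT12, and the knockout hearts had 6.35, 6.40, 6.30, 6.36 and 6.51. The knockout mean was 0.35 below wild type at ZT12 (SE 0.15), which did not pass (limma adjusted p = 0.374), so the probe set still gave signal there. Against wild type at ZT0 it was 0.23 higher (SE 0.15, adjusted p = 0.559), with 5 of 5 knockout hearts above the ZT0 mean. Which part of the gene the probe set covers, and which part the allele lacks, is not given in the sources used here. Array medians ran from 3.25 to 3.32, and correlations between arrays over all probe sets from 0.972 to 0.985. The number of hearts limits the precision of every difference.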

How the data were processed

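Expression was measured on Affymetrix arrays from total RNA, 1 array per heart. The deposited values are probe set summaries made by the authors with RMA, per the submitters' processing notes. They were taken as log2 because the deposited values run from 0.21 to 12.88. The sources used here name no RMA software. Probe sets were named from GEO's platform annotation, with symbols checked by Entrez identifier against GRCm38.p6 (0 changed). Of 41345 probe sets, 23521 listed 1 gene, 1814 several and 16010 none. The probe set with the highest mean stood for each of the 22180 genes.

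One limma model (version 3.58.1, R 4.3.3) took all 19 arrays, with a mean per group and eBayes without trend. Tests were two-sided, and the Benjamini-Hochberg adjustment ran over the 22180 genes. Correlations used group-centred values and 100000 permutations within groups, or all permutations within 1 group. Their p-values were adjusted over 14 relations, separately for each set of hearts and each kind of coefficient. The model was tested on simulated data. The members and lists were chosen with earlier results of these data known.

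Genes named in the text are the members; in the p53, cyclin and regulator lists the called genes or, where none was called, those among the 2 with the smallest p; and the genes most and least like Cdkn1a. Nr1d1, Bmp10, the called markers Ier3, Nr4a3, Gpr22 and Kdr, and the neighbours of Cdkn1a were named outside this rule, all but Nr1d1 after values were seen. Clone names, predicted genes, olfactory and small RNA genes were left out of that ranking. Alternatives were the arrays fitted, the variance prior, a filter on dim probe sets, the probe sets averaged, 2 normalizations, the replicate block, 2 covariates and each array left out. Replicate numbers are shared between groups, but deviations of same-numbered hearts correlated at only -0.07 to 0.07, so the main model has no block.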

Additional observations from a re-analysis of the deposited data

Results flagged for a closer look

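Cdkn1b in WT ZT12 replicate 5 was at 5.78, below the other 6 hearts of its group, and the gap to the next heart was 0.629 of the group's range (limit 0.568 for 7 hearts). Of 21 groups of members' values examined this was the only one past the limit, and chance alone passes about 1 in 20. The same heart had the lowest Cdkn1a of the series, 5.85, and the lowest atrial list mean of its group, 6.06. Without it the log2 difference of Cdkn1b between the times was 0.01 instead of -0.04.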

How the results depend on the processing

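The log2 difference of Cdkn1a kept its direction in every setting, with -0.85 to -0.71 between the times, 1.04 to 1.23 between the genotypes and 0.27 to 0.45 for knockout against wild type at ZT0 when 1 heart was left out. Only the atrial covariate moved it by more than the spread between hearts (0.61 in the last comparison). The count of other members called was 0 between the times and 1 (Sesn1) with dim probe sets left out, with a trend and robust fit and with centred arrays; leaving out 1 heart gave 0 to 1 there and for knockout against wild type at ZT0 (Sesn1 without WT ZT0 replicate 1, adjusted p = 0.03995), and 0 in the comparison of genotypes. For the other p53 genes the count for knockout against wild type at ZT0 was 2, but 1 with the replicate block and without the hearts low in atrial transcripts, a setting chosen after seeing the data; leaving out 1 heart gave 1 to 2, and 0 to 1 between the genotypes (1 without KO ZT12 replicate 1). The cause was not tested.

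Signs of small differences that did not pass turned in some settings. Cdkn1b between the times was 0.0157 with the atrial covariate and 0.0082 without the hearts low in atrial transcripts, and for knockout against wild type at ZT0 it was -0.013 after a second quantile normalization. Trp53inp1 between the genotypes was 0.0030 with either covariate. Without the hearts low in atrial transcripts Cdkn1c and Sesn1 between the genotypes were 0.12 and 0.012. Leaving out 1 heart gave Cdkn1b -0.0596 to 0.0082 between the times and -0.0299 to 0.0489 for knockout against wild type at ZT0; Cdkn1c -0.13 to 0.0404 between the genotypes and -0.0596 to 0.11 in the last comparison; and between the genotypes Sesn1 -0.0691 to 0.0279 and Trp53inp1 -0.11 to 0.0462. Correlations with Cdkn1a within ZT0 alone were -0.34 for Cdkn1b, 0.15 for Mdm2 and 0.11 for Ccng1. That with Cdkn1c was 0.12 by Spearman, 0.27 within ZT12 alone and -0.14 to 0.12 with 1 heart left out. The pairing by replicate number changed no other call among the members and p53 genes. Over all genes the calls in the 3 comparisons were 250, 162 and 298; they were 171, 88 and 182 with the block, 374, 270 and 444 with trend and robust fit, 383, 264 and 456 without dim probe sets, 208, 72 and 187 with only the groups compared, and 211, 19 and 84 without the hearts low in atrial transcripts. The setting without the hearts low in atrial transcripts kept only replicates 1 and 3 of the knockout. With the atrial covariate the calls were 232, 129 and 170. Centring the arrays gave 174 higher and 71 lower between the times, against 143 and 107.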

Other observations

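The neighbours of Cdkn1a on chromosome 17 were read after its values were seen, as the 3 nearest named genes with a probe set of their own on each side. Trp53cor1, the long noncoding RNA next to Cdkn1a that is itself known as a p53 target, had means of 3.60 at ZT0, 3.37 at ZT12 and 3.44 in the knockout, close to the median of all probe sets (3.25). Its log2 differences were -0.23 between the times (SE 0.12, limma adjusted p = 0.467) and 0.07 between the genotypes (SE 0.13, adjusted p = 0.902). Srsf3, which encodes a splicing factor, was at -0.07 and 0.03, Stk38 (a kinase gene) at 0.05 and -0.0027, and Rab44 at -0.01 and -0.12 in the same comparisons. Ppil1 was at 0.03 and 0.05 and Cpne5 at -0.26 and -0.41. Of these 6 neighbours limma called 0 in all 3 comparisons (1.13%, 0.73% and 1.34% of all genes), and at an unadjusted p under 0.05 Cpne5 alone was lower, for knockout against wild type at ZT0 (-0.67, adjusted p = 0.197; 6.15% of all genes were lower there at that p).

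Over group-centred values the genes most like Cdkn1a were others than over all hearts: Pdzrn4, Creb3l2, Cdh19, Nup98 and Zfp655, with r from 0.77 to 0.80 among 10417 genes and r from -0.12 to 0.59 over all hearts. Tgfb3 was at 0.71 and Slc41a3 at 0.0008 over group-centred values. These r are a ranking, with no test.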
